A study of Rattus norvegicus with 4 samples.

Results

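The genes described are 9 markers of Kupffer cells and other macrophages: Clec4f, C1qa, C1qb, Cd68, Cd163, Csf1r, Cd14, Ctss and Tyrobp. They were chosen by name, and a probe set counted for a gene where the array's annotation gave that gene's symbol and no other. By this rule 8 of the 9 genes, of 10412 named genes on the array, had a probe set, with 1 probe set each. Cd163, the receptor that clears haptoglobin-bound haemoglobin, had none and was not analysed here. With 1 probe set per gene, no member's pattern could be checked on a further probe set of the same gene.

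All 4 samples were whole livers of Sprague Dawley rats. The rats were males of 10 to 12 weeks that received no treatment and had free access to standard feed and tap water, and each liver was hybridised to a separate Affymetrix array. They form 1 group, called rats 1 to 4 after their replicate numbers, so no conditions were compared and no test was made. The study's title concerns drug-detoxifying proteins of the endoplasmic reticulum, and liver macrophages are background cells of the tissue it profiled. The values are log2 signals, on which 1 unit is a doubling of signal.

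Kupffer cells are the resident macrophages of the liver. They sit in the sinusoids, the wide capillaries between plates of hepatocytes, and take up bacteria, bacterial products, immune complexes and worn-out red cells from portal blood. They depend on signalling through the CSF1 receptor, and their products include C1q, the recognition molecule of the classical complement pathway. In RNA of whole liver, in which hepatocytes supply most of the transcripts, fewer macrophages and less RNA per macrophage cannot be told apart. Likewise each animal had 1 array, so that a difference between animals cannot be told apart from a difference between arrays.

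The members' mean signals ran from 8.47 (Tyrobp) to 10.51 (Clec4f) with a median of 9.75, against a median of 8.26 over all named genes. Bacillus control probe sets lay between 6.48 and 7.75. A probe set's signal depends on its own probes, so the order of the members describes signal and not amounts of transcript. The planned background level was the 95th percentile of probe sets for genes of brain, muscle, testis and eye, which was 10.24, and 1 of 8 members (Clec4f) exceeded it, against 6.61% of all named genes. That level was set by Myh1, a myosin of skeletal muscle, of whose 5 probe sets 4 had means between 10.04 and 11.49. Without Myh1 the level was 8.24, and all 8 members with a probe set exceeded it, against 50.7% of named genes. Tyrobp, at 8.47, was close to the highest background mean without Myh1, which was 8.32. The 1 or 8 members above a level therefore follow from the Myh1 probe sets. Ranked among the 15923 probe sets, the means of Clec4f, C1qa, Ctss and C1qb exceeded 95.6%, 94.0%, 93.3% and 93.2% of them. Those of Cd14, Cd68, Csf1r and Tyrobp exceeded 89.6%, 85.9%, 85.5% and 67.2%.

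**Figure D1:**
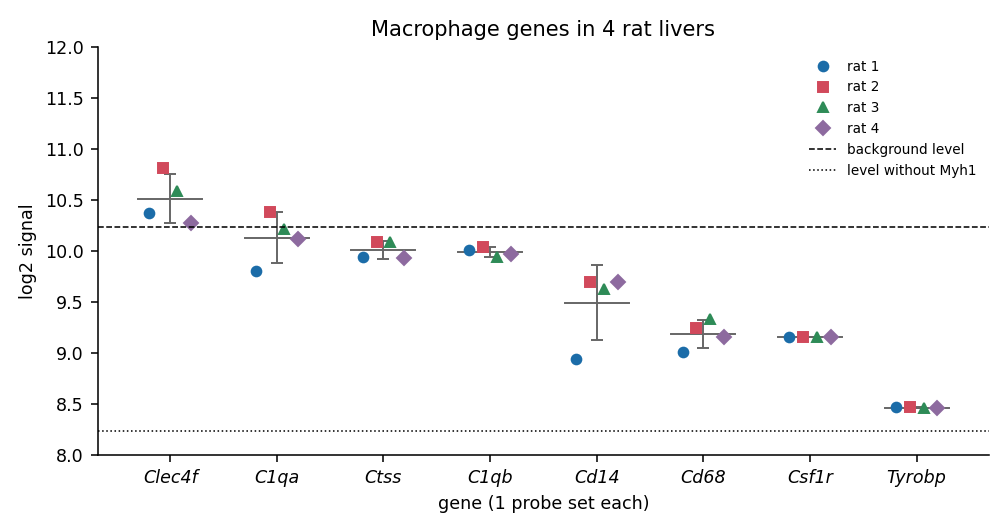
Log2 signal of the 8 macrophage genes with a probe set in each of 4 rats (symbols), with the mean (bar) and SD (whisker, n = 4). The dashed line is the background level of 10.24 and the dotted line the level of 8.24 without Myh1; Cd14 and C1qa have their lowest point in rat 1 and Clec4f its highest in rat 2.

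The surface receptor Clec4f is a C-type lectin that binds galactose-type sugars, known in rat liver as the Kupffer cell receptor. It had log2 signals of 10.38, 10.82, 10.59 and 10.28 in rats 1 to 4, a mean of 10.51 ± 0.24 (SD, n = 4) that exceeded those of 95.6% of probe sets. Rat 2 was highest and rat 4 lowest, 1.46-fold apart in signal. The SD exceeded that of 97.9% of named genes and of 89.1% of the genes above the level of 10.24, so that Clec4f varied more between these rats than most genes of strong signal.

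C1qa and C1qb encode chains A and B of C1q, which assembles from 3 kinds of chain into a bouquet that binds antibody on a target. C1qa had signals of 9.80, 10.39, 10.22 and 10.12 in rats 1 to 4 (10.13 ± 0.25, SD, n = 4). Rat 2 was highest and rat 1 lowest by 0.59 log2 units, or 1.50-fold. C1qb had 10.02, 10.05, 9.94 and 9.97 (9.99 ± 0.05, SD, n = 4). Rat 2 was again highest, but the whole range was 0.10 log2 units, and the SD exceeded that of 68.6% of named genes against 97.9% for C1qa. The gene of the third chain, C1qc, which lies between C1qb and C1qa on chromosome 5 of the rat assembly GRCr8, had 9.96, 10.23, 10.10 and 10.13. It shared the highest value in rat 2 and the lowest in rat 1 with C1qa, over a range of 0.27 log2 units. The 3 chains of a single protein thus had the same highest rat and ranges from 0.10 to 0.59 log2 units, a comparison of single probe sets.

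Cd14, the anchored or soluble protein that hands bacterial lipopolysaccharide to the TLR4 receptor complex, had the largest SD of the members over the 4 rats. It had signals of 8.95, 9.70, 9.63 and 9.70 in rats 1 to 4 (9.50 ± 0.37, SD, n = 4). Rats 2, 3 and 4 lay within 0.1 log2 units of each other and rat 1 stood 0.68 below the nearest of them. The SD exceeded that of 99.0% of named genes. It rested on rat 1: without that rat the SD of Cd14 was 0.041, below those of Clec4f (0.272), C1qa (0.136), Ctss (0.091), Cd68 (0.086) and C1qb (0.053). In the gap between 1 rat and the other 3, relative to the range, Cd14 had a ratio of 0.906, past Dixon's critical value for 4 values. Of the 7 members with varying values 1, Cd14, passed it, as did 5.15% of the 6002 named genes with varying values.

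The promoter regions of Clec4f, C1qa, C1qb and Cd14 are shown because these genes were the members of the clearest patterns: 2 with wide ranges and their highest signal in rat 2 (Clec4f and C1qa), a gene that neighbours C1qa and differed little between rats (C1qb), and the gene with 1 rat apart (Cd14). Each is the 250 bases before the RefSeq start, on build GRCr8, read 5′ to 3′ on the strand of the gene, which is the minus strand in each case. The regions are chr4:117696408-117696657, chr5:154419934-154420183, chr5:154407828-154408077 and chr18:28611159-28611408. Capitals mark a repeated stretch in Clec4f and, in C1qb and Cd14, the letters GAGGAA or their reverse complement TTCCTC, which contain the core bound by the myeloid transcription factor PU.1.
Clec4f: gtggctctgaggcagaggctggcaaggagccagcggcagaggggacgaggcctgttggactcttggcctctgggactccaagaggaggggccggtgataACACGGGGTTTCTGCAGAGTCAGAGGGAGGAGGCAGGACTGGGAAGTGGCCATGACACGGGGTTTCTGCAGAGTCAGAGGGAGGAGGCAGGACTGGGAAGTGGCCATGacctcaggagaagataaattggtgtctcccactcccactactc
C1qa: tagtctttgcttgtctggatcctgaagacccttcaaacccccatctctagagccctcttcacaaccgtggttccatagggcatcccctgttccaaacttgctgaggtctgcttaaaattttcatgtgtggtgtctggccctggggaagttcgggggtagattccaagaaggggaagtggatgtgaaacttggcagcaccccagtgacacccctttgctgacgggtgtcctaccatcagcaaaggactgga
C1qb: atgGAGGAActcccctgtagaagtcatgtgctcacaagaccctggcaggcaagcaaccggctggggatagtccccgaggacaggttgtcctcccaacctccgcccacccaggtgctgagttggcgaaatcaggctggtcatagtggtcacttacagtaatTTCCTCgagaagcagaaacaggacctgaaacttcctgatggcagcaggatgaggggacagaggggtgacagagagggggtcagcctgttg
Cd14: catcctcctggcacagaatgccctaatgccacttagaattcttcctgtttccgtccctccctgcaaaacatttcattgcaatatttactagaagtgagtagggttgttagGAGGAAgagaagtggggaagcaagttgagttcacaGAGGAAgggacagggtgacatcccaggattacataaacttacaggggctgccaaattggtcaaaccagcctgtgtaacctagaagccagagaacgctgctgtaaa

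In Clec4f a stretch of 54 bases occurred 2 times in tandem, the copies beginning 151 and 97 bases before the start, and GAGGAA was not found on either strand of the window. C1qa also had no GAGGAA in these letters. C1qb had it 247 and 90 bases before the start and Cd14 140 and 105 bases before it. Of the 8 members in the promoter table, which include Cd163 and lack Tyrobp, 5 had GAGGAA on either strand, against 23.3% of all 33469 promoter windows of 250 bases. The members with it were C1qb, Cd68, Csf1r, Cd14 and Ctss. A match of letters is a description, and factor binding was not measured.

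Cd68 and Ctss act in lysosomes, where macrophages break down what they have engulfed. Cd68, a heavily glycosylated protein of the lysosomal membrane, had signals of 9.01, 9.25, 9.34 and 9.16 in rats 1 to 4 (9.19 ± 0.14, SD, n = 4). Rat 3 was highest and rat 1 lowest, 1.25-fold apart. Ctss, the cathepsin that trims the invariant chain for antigen presentation, had 9.95, 10.09, 10.09 and 9.93 (10.02 ± 0.09, SD, n = 4). Rats 2 and 3 were equal at the printed precision and lay above rats 1 and 4, which were close to each other, so that the 4 livers fell into a higher and a lower level 0.16 log2 units apart at most.

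Csf1r, the receptor for the growth factors CSF1 and IL-34, had the same signal of 9.16 in all 4 rats to within 0.001 log2 units. Such flat values were found for 42.4% of named genes and come with the deposited summaries, so that the SD of Csf1r does not measure the animals. Tyrobp (DAP12), the membrane adaptor that passes signals of activating receptors to the kinase Syk, had 8.47, 8.47, 8.47 and 8.46 in rats 1 to 4. Its range of 0.01 log2 units was nearly as small, and its mean exceeded that of 67.2% of probe sets, the lowest rank of the 8 members.

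Across the 7 members with varying values, rat 2 was above the gene's own mean in 7, rat 3 in 5, rat 1 in 2 and rat 4 in 1. Rat 2 was highest in 5 of 7 (Clec4f, C1qa, C1qb, Ctss and Tyrobp), against 24.1% of named genes with varying values. In Ctss and Tyrobp this lead over the next rat was within 0.01 log2 units. Rat 1 was lowest in 3 of 7 (C1qa, Cd68 and Cd14), against 26.8% of named genes, and rat 4 was lowest in 3 of 7 (Clec4f, Ctss and Tyrobp), against 25.3%. In Ctss and Tyrobp rat 4 lay only 0.014 and 0.007 log2 units below the next rat. Rat 3 was highest in 1 of 7 (Cd68), against 28.5%, and lowest in 1 of 7 (C1qb), against 22.1%. Rat 2 was lowest in 0 of 7, against 25.8%, rat 1 highest in 0 of 7, against 26.8%, and rat 4 highest in 1 of 7 (Cd14, level with rat 2), against 20.7%.

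In 4 of the 7 (Clec4f, C1qa, Cd68 and Ctss) rats 2 and 3 both lay above rats 1 and 4, an arrangement counted after the values were seen and found in 16.2% of named genes with varying values. These 4 genes encode a surface lectin, a complement chain and 2 lysosomal proteins. The median deviation of the 8 members from their own means was -0.10 in rat 1, 0.07 in rat 2, 0.07 in rat 3 and -0.02 in rat 4. Over all named genes it was 0 to 3 decimals in each rat. That value follows from the common scale of the arrays and the 42.4% of named genes that are flat. It does not show how far the median of 8 genes strays by chance. The median SD of the 8 members was 0.112, against 0.0318 over the 3580 named genes whose mean signals lay in the members' range. Leaving out flat genes on both sides, it was 0.137 for 7 members, against 0.0567 for 2324 named genes in that range. Without rat 1 the members' median SD was 0.070.

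**Figure D2:**
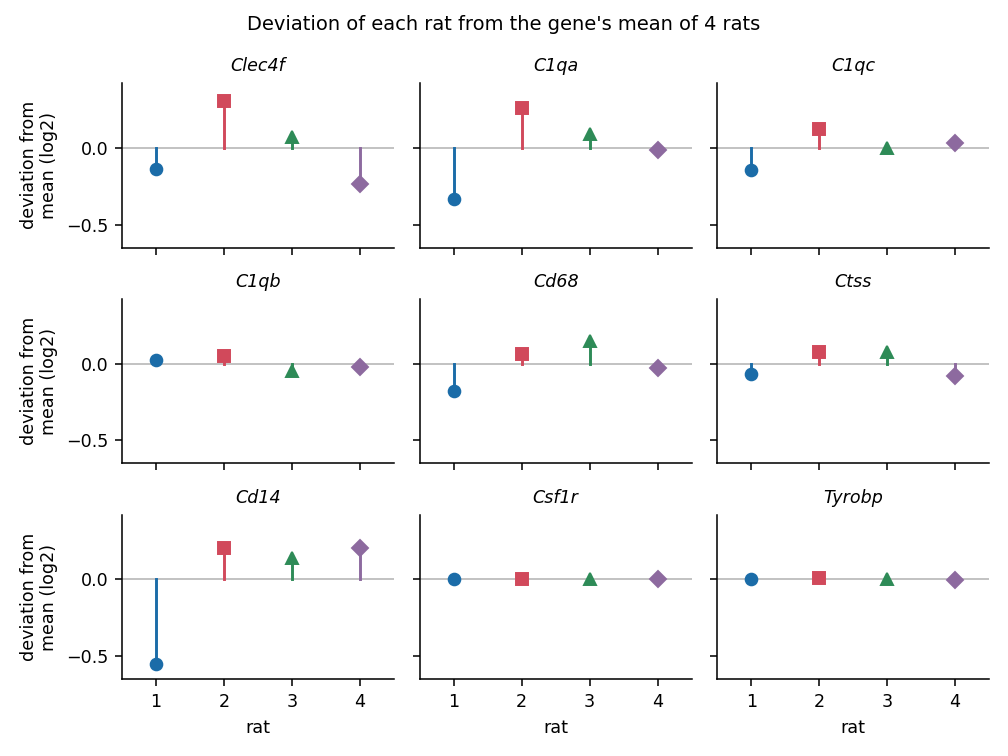
Deviation of each rat's log2 signal from the gene's mean over the 4 rats, for the 8 members and for C1qc, on 1 common scale. Cd14 is at -0.55 in rat 1, Clec4f and C1qa are at 0.31 and 0.26 in rat 2, and Csf1r and Tyrobp do not leave 0 visibly.

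The genes whose 4 deviations were nearest to those of Clec4f, among 587 other named genes with varying values above the level of 10.24, were Ifi27, Ccl6, Fam210b, Vkorc1 and Mug1. The nearest was Ifi27, an interferon-induced gene, at a root mean square difference of 0.035 log2 units, with signals of 12.68, 13.09, 12.83 and 12.48 in rats 1 to 4. Ccl6, a chemokine made by macrophages in mice, was next at 0.065, with 10.39, 10.66, 10.52 and 10.24. Both were highest in rat 2 and lowest in rat 4, as Clec4f was. Nearest to the mean deviation of the 7 members with varying values were Ppp2r5a, Spcs3, Cops9, Rpl27a and Rpl19, at 0.027 to 0.040 log2 units. These include 2 ribosomal protein genes and a signal peptidase subunit, none of them a macrophage marker. The likeness rests on 4 values per gene and is a description.

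The genes nearest to Cd14 among the same 587 genes, a search added after the values were seen, were Apoa1, Lbp, Sdf2l1, RT1-S3 and Hspa5, at 0.076 to 0.154 log2 units. Among the 3410 genes with varying values above the level of 8.24, Apoa1 was again nearest, and Pde4b (0.088) and Psmb9 (0.130) came before RT1-S3 and Hspa5. Lbp, the plasma protein that hepatocytes secrete to deliver lipopolysaccharide to CD14, had 9.89, 10.46, 10.32 and 10.55 in rats 1 to 4. Lbp and Cd14 had the same order of rats, with rat 1 lowest, though Cd14 was level in rats 2 and 4 at 9.70. Lbp was found by its nearness to Cd14, so that a like order follows from the search. Apoa1, the main apolipoprotein of high-density lipoprotein, had 12.34, 12.98, 13.03 and 12.92, with rat 1 apart from the others. The deviations of the other 4 hepatocyte markers in rat 1 were 0.012 for Alb, 0.091 for Fgb, -0.015 for Ttr and -0.018 for Serpina1. Ttr and Serpina1 were also lowest in rat 1, over whole ranges of 0.035 and 0.028 log2 units. Which cells gave the Cd14 signal was not tested.

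Among the other genes of the members' pathways, the count above the level of 10.24 is given first and that above 8.24 second, over the genes that had their own probe set. Of all named genes 6.61% and 50.7% were above these levels, so that a share near 50.7% at the lower level says nothing particular about a list. Of 7 other genes of the lipopolysaccharide receptor pathway, 1 and 3 were above these levels. Lbp passed both and the adaptor kinase Irak1 (9.64 ± 0.02, SD, n = 4) passed the lower, while the receptor Tlr4 itself was flat at 7.51. Of 5 other ITAM adaptors and partners, 0 and 5 passed. They were led by the antibody receptor Fcgr2b (9.40 ± 0.14, SD, n = 4) and Fcer1g (flat at 9.29), the adaptor of Fc receptors. Of 9 other genes of the CSF1 axis and myeloid transcription factors, 0 and 8 passed. The highest were Cebpb (9.61 ± 0.24, SD, n = 4) and Id3 (9.34 ± 0.07), and the ligand Csf1 had 8.88.

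Early complement had 3 and 5 of 6 other genes above the levels. They included C3 (flat at 14.18), the central complement protein, C1s (11.80) and C1r (11.62 ± 0.11, SD, n = 4), all known as products of hepatocytes. C1r and C1s, the proteases carried by C1q, were highest in rat 4, with rat 2 close to it. C1r had 11.71 in rat 4 and 11.70 in rat 2, and C1s had 11.805 and 11.802. C1qa, C1qb and C1qc were highest in rat 2. Scavenger and lectin receptors had 2 and 5 of 8 other genes above the levels, and those above 10.24 were the hepatocyte asialoglycoprotein receptors Asgr2 (flat at 10.94) and Asgr1 (10.70 ± 0.04, SD, n = 4). Haemoglobin and iron recycling had 2 and 4 of 4, the plasma proteins Hp (14.21 ± 0.03, SD, n = 4) and Hpx (13.81 ± 0.05) above both. The iron exporter Slc40a1 (9.99) and haem oxygenase Hmox1 (9.20) were flat.

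Lysosomal cathepsins and membrane proteins had 8 and 13 of 14 other genes above the levels, the highest of them Ctsl (11.64 ± 0.12, SD, n = 4) and Ctsb (flat at 11.40). Lamp2, Psap, Ctsh, Ctsc, Npc2 and Lamp1, the others above 10.24, had means from 10.33 to 11.18. Of the 9 with varying values 7 were highest in rat 4, against 20.7% of named genes with varying values. Among these, rat 4 was nearly level with the next rat in Ctsk (8.154 against 8.153), Lgmn (9.298 against 9.297) and Lamp2 (11.19 against 11.188). Of the members only Cd14 was highest in rat 4, level with rat 2. General leukocyte and phagocyte genes had 1 and 9 of 15 above the levels. Mpeg1, a pore-forming protein of macrophages, had 11.26 to 11.27 on its brighter probe set and 9.17 to 9.37 on the other, so that 1 gene's probe sets lay about as far apart as the members' whole range. The lysozyme Lyz2 had 9.96 ± 0.03 (SD, n = 4). Inflammatory cytokines and effectors had 0 and 2 of 13 above the levels, Il1a (8.51 ± 0.09, SD, n = 4) and Nos2 (flat at 8.42).

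Class II antigen presentation, in which Ctss acts, had 2 and 9 of 9 other genes above the levels. Cd74, the invariant chain, had 10.58, 10.75, 10.62 and 10.92 in rats 1 to 4, and RT1-Da, a class II chain, had 10.39, 10.59, 10.44 and 10.80. Rats 2 and 4 were the higher ones in both. RT1-Bb ran over a far wider range on its brighter probe set, with 7.44, 9.03, 7.25 and 9.42, or 4.52-fold from lowest to highest. Its values in rats 1 and 3 lay within the range of the Bacillus control probe sets (6.48 to 7.75). The other RT1-Bb probe set had 8.06, 8.02, 7.91 and 8.02. Of the 9 genes, 6 were highest in rat 4, against 20.7% of named genes with varying values, and 6 were lowest in rat 1, against 26.8%. Rats 2 and 4 both lay above rats 1 and 3 in 7 of the 9, an arrangement also counted after the values were seen and found in 16.5% of named genes. Among the 7 members with varying values it was found in 1 (Cd14), and Ctss was at its highest in rats 2 and 3.

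**Figure D3:**
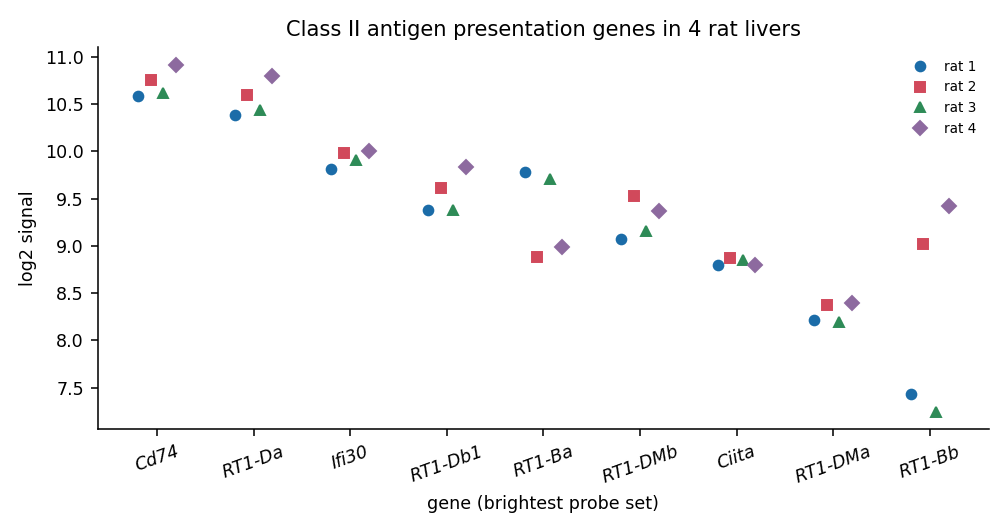
Log2 signal of 9 class II antigen presentation genes (brightest probe set of each) in each of 4 rats. Rats 2 and 4 lie above rats 1 and 3 in Cd74, RT1-Da and RT1-Bb (9.03 and 9.42 against 7.44 and 7.25), and below them in RT1-Ba.

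The label was checked against markers of other cells. Hepatocyte markers had a median signal of 14.17 over 5 genes, led by Alb (15.06 ± 0.02, SD, n = 4) and Ttr (14.32 ± 0.02). Red cell genes had a median of 9.90 over 2 genes. The macrophage genes had a median of 9.75 over 8 genes, above the medians of 8.15 for 7 endothelial genes and 8.31 for 10 stellate cell and fibroblast genes. The highest endothelial genes were Eng (9.56 ± 0.23, SD, n = 4) and Kdr (flat at 9.56), and the highest stellate cell and fibroblast genes Col3a1 (10.83 ± 0.43) and Reln (9.20 ± 0.15). T cell and NK cell genes had a median of 7.74 over 11 genes, with Cd4, which rat macrophages also carry, at 8.51 and Lck at 8.22. Bile duct genes had a median of 7.97 over 4, with Epcam at 8.24 and Spp1 at 8.10. Neutrophil genes had 7.64 over 3, with Np4 at 7.69 and S100a9 at 7.64, and the B cell gene Cd79b had 7.94. Of these 19 genes, 1 (Cd4) was above the level set without Myh1. These medians compare different probes and are no cell counts. No marker is listed at 0, and the lowest value in the whole table was 5.98.

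Markers of other cell types also differed between the rats. Hbb, the haemoglobin beta chain of red cells, had 11.91, 11.27, 11.64 and 11.00 in rats 1 to 4. Alas2, which red cell precursors use for haem, averaged 8.33 ± 0.10 (SD, n = 4). Col3a1 had 10.80, 11.15, 10.23 and 11.15, and 5 of 8 stellate cell and fibroblast genes with varying values were highest in rat 2, as 5 of 7 members were. In 6 of these 8 rats 2 and 4 both lay above rats 1 and 3, as in 7 of 9 class II genes. The same held for 1 of 7 members and for 16.5% of named genes with varying values. Of 5 T cell and NK cell genes with varying values, 4 were highest in rat 2, against 24.1% of named genes. Of these, Cd3e, Cd3d and Prf1 had means of 7.69, 7.74 and 7.93, below the level set without Myh1. Their ranges were 0.057, 0.077 and 0.072 log2 units. Cd4 was level in rats 2 and 4 at 8.577. At such signals and ranges the count does not show that these cells differed between the rats. Hepatocyte markers had median deviations of -0.015, 0.010, -0.011 and 0.005 in rats 1 to 4. The part of these cells in the members' differences was not tested.

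**Figure D4:**
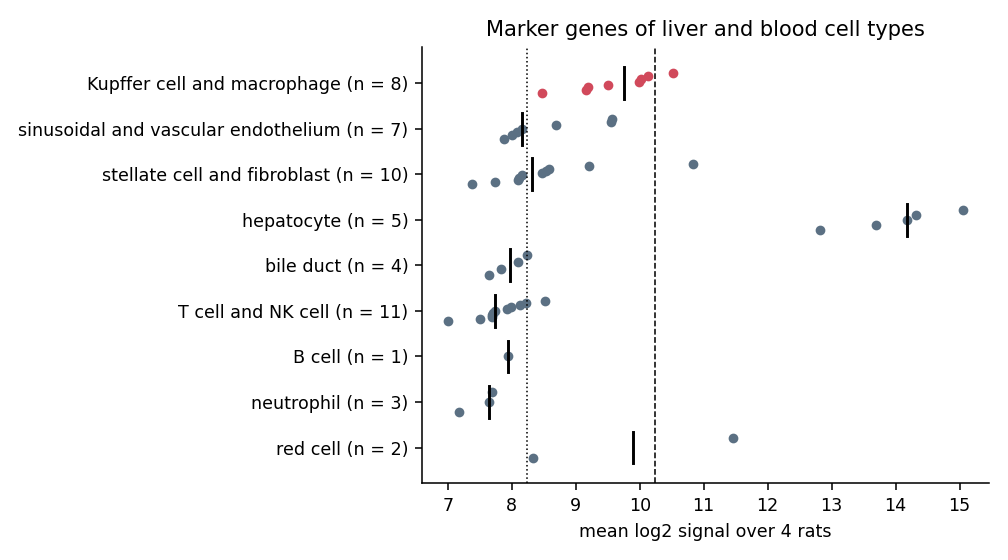
Mean log2 signal over 4 rats of marker genes of 9 cell types (points, 1 per gene, n genes in brackets), with the median of each list as a bar. The dotted and dashed lines are the levels of 8.24 and 10.24; the macrophage genes, in red, lie below the hepatocyte markers, and their median is below that of the 2 red cell genes and above those of the other 6 cell types.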

How the data were processed

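Total RNA of 4 livers was labelled with biotin and hybridised to 1 Affymetrix array each, per the labels' protocols. The table deposited by the authors holds a log2 signal for each of 15923 probe sets. R 2.4.1, affy 1.12.2, GCRMA and RMA are named in the submitters' processing notes with no role or order, so which of them gave the deposited values is not given in the sources used here. Array medians of 8.11 in all 4 rats show a common scale. The arrays shared 1 lot, 1 station and 1 day, per the file headers, while each had a module of its own, which cannot be told apart from the rat.

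Of the probe sets, 12789 carried 1 gene symbol and were used for naming. Where a gene had several probe sets, the 1 of highest mean signal stood for it. The background level came from 52 probe sets of 39 genes. Flat means a range of at most 0.001 log2 units. Deviations, SDs, ranks, Dixon's gap ratio and root mean square differences were computed in Python 3.11.15 with numpy 2.4.6 and pandas 2.3.3, and tested on simulated data. The number of arrays limits the precision. Members, 10 gene lists, 8 lists of other cell types and the naming rule were chosen with earlier results of these data known. The rule took all members, genes above the level or the 2 highest of each list, and the 5 nearest patterns. C1qc, Csf1, Tlr4, Slc40a1, Hmox1, Ctsk, Lgmn, RT1-Ba, RT1-Bb and most genes nearest to Cd14 fell outside it and were named after their values were seen. Alternatives covered the background level, the probe set of a gene, scaling, flat probe sets and leaving out each rat.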

Additional observations from a re-analysis of the deposited data

Results flagged for a closer look

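The sets of 4 values looked at were the members' median deviation and the genes with varying values that this text mentions. They are not the 6002 named genes with varying values of the array. Of these 61 sets, 4 had a single rat apart from the rest, and about 5% would by chance. The gap is taken relative to the range, so that small differences can count, and some of the genes were picked with their values in view. Cd14 had a log2 signal of 8.95 in rat 1 (replicate 1), against 9.63 to 9.70 in the other rats. Apoa1 also had its low value in rat 1, 12.34 against 12.92 to 13.03, as did Pde4b, 7.71 against 8.48 to 8.62. Both were picked as nearest to Cd14, which is itself low in rat 1. Lamp2, a lysosomal membrane protein, had 11.16 in rat 3, against 11.19 in each of the other rats.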

How the results depend on the processing

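The count of members above background depended on the level. It was 8 of 8 at the 90th percentile (8.26, with 49.7% of named genes above), without Myh1 (8.24, 50.7%) and when probe sets marked s, x or a, which can match several transcripts, were dropped (8.26, 49.4%). It was 0 of 8 at the 98th percentile (10.81, 3.92%) and 0 of 7 without flat probe sets (10.70, 6.16%). It stayed at 1 with the median over probe sets of a gene, with arrays centred on their medians, with quantile normalization and without any 1 rat. The members' median SD was 0.070 to 0.124 when 1 rat was left out, lowest without rat 1, and 0.112 to 0.137 under the other alternatives. The median deviations moved by less than their SD of 0.084 under all 32 alternatives computed. That tolerance is larger than the values of rats 2, 3 and 4 themselves (0.068, 0.073 and -0.018). The count therefore does not show that the deviations were stable. With rat 1 left out, rat 3 was at 0.000, and leaving out 1 rat gave rat 2 values from 0.038 to 0.104 and rat 1 values from -0.141 to -0.040. The largest change of a member's mean signal over 48 alternative values was 0.18 log2 units. Of the 48 values, 47 moved by less than the SD between rats. For the 32 that left out 1 rat this was fixed in advance, because dropping 1 of 4 values cannot move a mean that far. The 1 other was that of flat Csf1r under quantile normalization. Of 48 alternative values of the members' SDs 9 moved by over 1.5 times, 6 of them on leaving out 1 rat. Without rat 1 the SD was 0.136 for C1qa, 0.086 for Cd68 and 0.041 for Cd14, against 0.247, 0.137 and 0.367 with all rats, and without rat 2 it was 0.158 for Clec4f, against 0.241. No paired analysis was possible because there is 1 group. Nothing here measures amounts of transcript, and cells of a type were not counted.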

Other observations

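The class II gene RT1-Ba had 2 probe sets that went opposite ways across the rats, values looked up after the class II pattern was seen. The first had log2 signals of 9.78, 8.89, 9.71 and 8.99 in rats 1 to 4, and the second had 8.22, 9.59, 8.36 and 9.66. Rats 1 and 3 were the higher ones on the first and rats 2 and 4 on the second. RT1-Bb also had 2 probe sets, 1 with 7.44, 9.03, 7.25 and 9.42 and 1 with 8.06, 8.02, 7.91 and 8.02. The split of rats 1 and 3 from rats 2 and 4 was thus seen on some probe sets of these polymorphic genes and not on others. The cause was not tested. Of the 7 members with varying values, 1 (Cd14) had rats 2 and 4 above rats 1 and 3, against 16.5% of named genes with varying values. In Cd14 rat 3 (9.63) lay close to rats 2 and 4 (9.70 each), and rat 1 (8.95) stood apart.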
